A study of Capra hircus with 2 samples.

Results

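The cells described here were 76 of the 13051 kept cells of goat skin, and they were chosen by their counts of CPA3 and SRGN transcripts. CPA3 encodes the mast cell granule protease carboxypeptidase A3, and SRGN encodes serglycin, the proteoglycan core protein that packs granule proteases. A cell was a member if it had at least 1 unique molecular identifier (UMI, 1 tagged RNA molecule) of CPA3 and at least 2 of SRGN, and if both together made up at least 5 per 10000 of its UMIs. A member also had 0 UMIs of the T cell genes CD3E and CD3G together and fewer than 3 of the endothelial genes PECAM1, PLVAP and VWF together. There were 60 members among the 3443 kept cells of the CT_LCG library and 16 among the 9608 kept cells of the FT_LCG library.

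The study compared skin of Liaoning cashmere goats of a coarse type (CT_LCG) and a fine type (FT_LCG) of cashmere. Skin over the scapula was taken from healthy goats in anagen, the growth phase of the hair follicle, dissociated with enzymes, and loaded on a 10x Chromium device for 3′ sequencing of single cells. Each type was 1 library of 1 goat, with no treatment, and age and genotype were not given in the labels. The names of the libraries come from the authors' table of kept cells, since the labels do not say which sample was of which type. The 2 libraries are described side by side with no test between them, since fibre type, goat and library cannot be told apart. Intervals are exact 95% intervals of counts, they cover counting error only, and cells of 1 library are not replicates of a fibre type.

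Mast cells are tissue-resident cells of the haematopoietic lineage that lie in the dermis around vessels, nerves and hair follicles. They depend on the receptor KIT, bind IgE through the high-affinity receptor FCER1, and carry granules of proteases, histamine and proteoglycan. On activation they release the granules and make prostaglandins, leukotrienes and cytokines. Their numbers and granule state have been linked to the hair cycle.

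The members made up 1.74% of the kept CT_LCG cells (Clopper-Pearson interval 1.33 to 2.24) and 0.167% of the kept FT_LCG cells (0.0952 to 0.270), so the 2 intervals did not overlap. In CT_LCG the members had 1856 to 14386 UMIs, with a median of 4410, and the other kept cells had a median of 2223. In FT_LCG the members had 857 to 11538 UMIs, with a median of 1964.5, against a median of 6130.5 in the other kept cells. The median number of genes per member was 1672.5 in CT_LCG and 935 in FT_LCG. Depth thus differed between the members of the 2 libraries in the direction opposite to that of the other cells. Among the kept cells with at least 1000 genes, the share of members was 3.18% in CT_LCG and 0.0924% in FT_LCG. Barcode sequences that occurred in both libraries numbered 11 among the kept cells, and 0 of the members had one.

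The 2 deepest FT_LCG members stood apart from the other 14. They had 10717 and 11538 UMIs, while the other 14 had 857 to 2709, and they held 45.6% of all UMIs of the FT_LCG members. Of the 10 keratinocyte genes in the matrix, they carried 249 and 394 UMIs per 10000, against 81.2 to 280 in the other 14. Both cells met the rule by the lowest margins of their library, with CPA3 and SRGN together at 17.7 and 11.3 per 10000. Summed values of FT_LCG are for all 16 members unless the 2 deep members are said to be left out.

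By the rule, CPA3 and SRGN were high in the members, and their values are a description only. CPA3 ranged from 1 to 21 UMIs per member in CT_LCG (median 5) and from 1 to 6 in FT_LCG (median 2.5). SRGN ranged from 3 to 112 UMIs in CT_LCG (median 24) and from 3 to 33 in FT_LCG (median 10). The lowest sum of CPA3 and SRGN was 19.3 per 10000 in CT_LCG and 11.3 in FT_LCG, against the limit of 5. For CPA3, 4 of the 60 CT_LCG members and 4 of the 16 FT_LCG members were at the limit of 1 UMI. Just outside the rule, 9 kept CT_LCG cells and 5 kept FT_LCG cells had a CPA3 UMI, and 11 of these 14 had 0 SRGN UMIs. The nearest were 2 CT_LCG cells with 1 UMI each of CPA3 and SRGN, which also held KIT and GATA2 UMIs, and 1 CT_LCG cell of 36500 UMIs with 2 of CPA3, 7 of SRGN and 1990 of KRT10.

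The name mast-like was set beside 17 further genes of a mast cell list of 23, of which 19 were symbols of the matrix. Among the 17 were HPGD and NFKB1, given beforehand as markers of these cells. The list was chosen with earlier results of these data known, so this was not an independent check. Each CT_LCG member had a UMI of 6 to 14 of the 17 genes (median 10), and each FT_LCG member of 2 to 10 (median 7). T cells, taken as kept cells with at least 2 UMIs of CD3E and CD3G and 0 of CPA3, had 0 to 2 of them in both libraries. CD74-high cells, which had at least 20 CD74 UMIs per 10000 and 0 UMIs of CD3E, CD3G and CPA3, had 0 to 4 in CT_LCG and 0 to 5 in FT_LCG. The ranges of members and T cells met at 2 genes, in FT_LCG, where the range of the CD74-high cells also overlapped that of the members. With each cell thinned to 1000 UMIs, which left out 1 FT_LCG member, the median was 6 genes in the members of both libraries and 0 in the T cells. Outside the rule, 5 other kept CT_LCG cells and 2 other kept FT_LCG cells had a UMI of 6 or more of the 17 genes, and 6 of these 7 had 0 CPA3 UMIs, so the rule does not take in every cell with this set of genes. CMA1, TPSAB1, TPSB2 and CTSG, symbols of the chymase, tryptases and cathepsin G, were not symbols of the matrix.

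Each gene was then compared between the members and the other kept cells of the same library, as a ratio of summed UMIs per 10000. Among genes with at least 10 UMIs in the members, 18.4% were at least 4-fold higher in the members and 2.96% at least 4-fold lower in CT_LCG, and 22.1% and 0.975% in FT_LCG. Without the 2 deep FT_LCG members, 31.2% were at least 4-fold higher. The median log2 ratio of all such genes was 0.59 in CT_LCG and 0.51 in FT_LCG. Of the mast cell list, 17 of 17 genes with at least 10 UMIs were at least 4-fold higher in CT_LCG and 11 of 11 in FT_LCG, with median log2 ratios of 8.70 and 8.77. These counts include CPA3 and SRGN, which chose the members, and HPGD and NFKB1, which were given beforehand as markers of them.

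**Figure D1:**
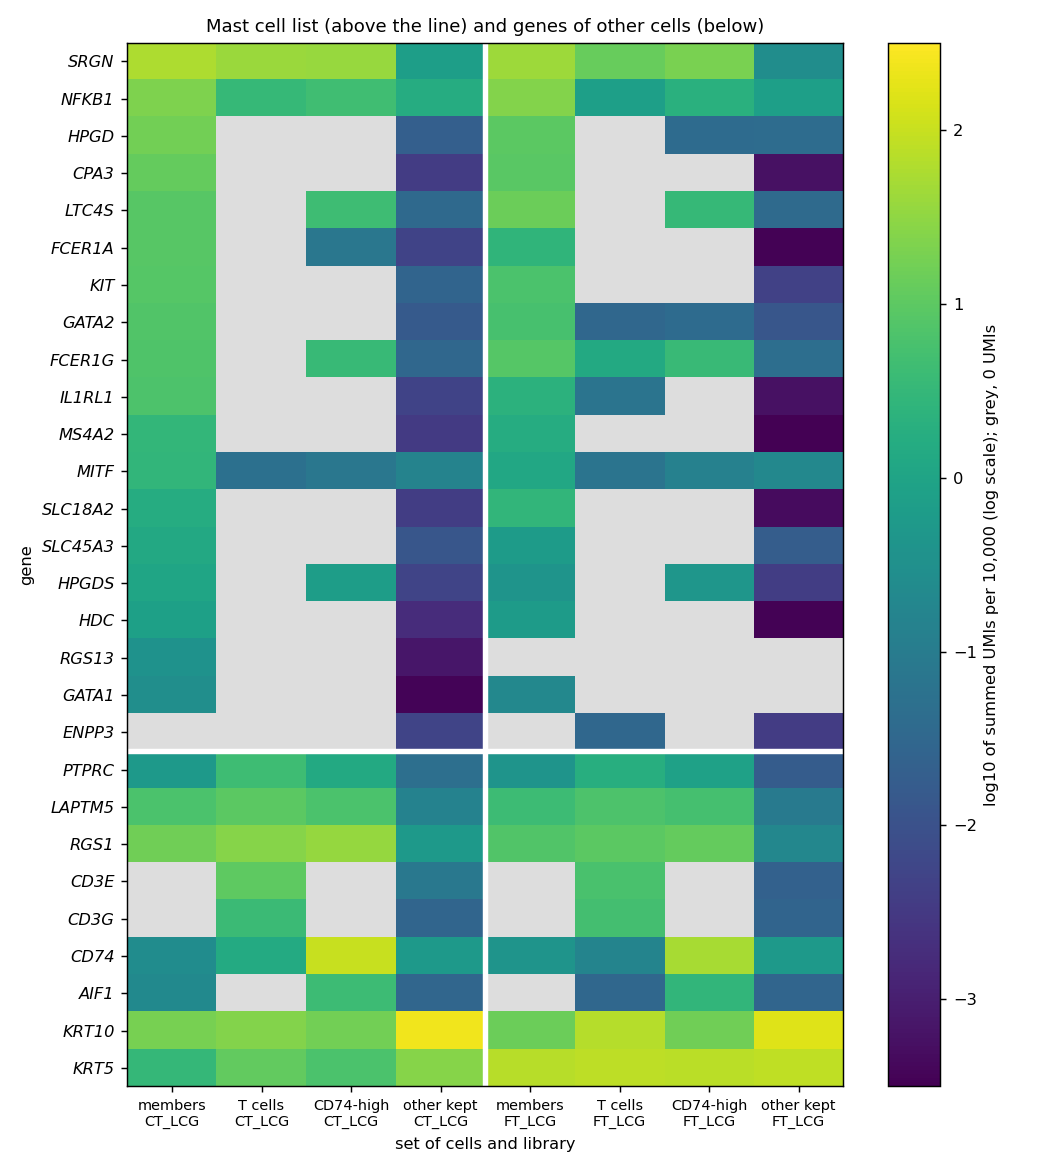
Level of each gene (rows, summed UMIs per 10000, colour on a log10 scale, grey for 0 UMIs) in the members, T cells, CD74-high cells and other kept cells of each library (columns). KIT, MS4A2, HDC, SLC18A2 and GATA1 were at 0 UMIs in the T cells and CD74-high cells of both libraries, while SRGN, LAPTM5 and RGS1 were present in all 4 sets of cells.

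The receptor KIT, which carries the survival signal of stem cell factor, had 0 to 11 UMIs per CT_LCG member (median 4) and 0 to 7 per FT_LCG member (median 1). It was detected in 59 of 60 and 10 of 16 members. The summed level was 8.29 per 10000 in CT_LCG (interval 7.31 to 9.38) and 6.36 in FT_LCG (4.32 to 9.02), or 9.05 without the 2 deep members. The intervals of the 2 libraries overlapped. The other kept cells together held 75 KIT UMIs in 3383 cells of CT_LCG and 38 in 9592 cells of FT_LCG. IL1RL1, the receptor of interleukin 33, was summed to 206 UMIs in 51 CT_LCG members and 11 UMIs in 8 FT_LCG members, against 14 and 5 UMIs in all other kept cells. Of the 20 growth and survival genes, 10 of 10 with at least 10 UMIs were at least 4-fold higher in CT_LCG and 4 of 4 in FT_LCG. They included IL10RA, a chain of the interleukin 10 receptor, with 43 and 13 UMIs, and MCL1, an inhibitor of apoptosis, with 503 and 95 UMIs. CSF2RB, the common beta chain of the receptors of interleukin 3, interleukin 5 and GM-CSF, had 42 and 2 UMIs, while IL3RA and EPOR were at 0 UMIs in the members of both libraries.

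All 3 chains of the high-affinity IgE receptor were present. FCER1A, the chain that binds IgE, had 0 to 21 UMIs per CT_LCG member (median 3.5), and it was detected in 51 of 60 CT_LCG members but in 5 of 16 FT_LCG members. Its summed level was 8.75 per 10000 in CT_LCG (7.73 to 9.86) and 2.67 in FT_LCG (1.42 to 4.56), or 4.90 without the 2 deep members (2.61 to 8.39). The ratio of CT_LCG to FT_LCG was 3.28 with all members (interval 1.89 to 6.24), and that without the 2 deep members was 1.78 (1.03 to 3.39). The beta chain MS4A2 was detected in 41 of 60 and 6 of 16 members, at 2.99 (2.41 to 3.67) and 1.64 (0.708 to 3.23) per 10000. The gamma chain FCER1G was detected in 46 of 60 and 15 of 16 members, at 7.12 (6.21 to 8.13) and 8.20 (5.86 to 11.2) per 10000. Intervals overlapped between the libraries for both of these chains. FCER1G was not restricted to the members, since the CD74-high cells held 3.47 per 10000 in CT_LCG and 3.70 in FT_LCG.

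Depth bears on these shares of cells. Thinned to 1000 UMIs, KIT was detected in 63.3% of CT_LCG members and 60.0% of FT_LCG members, against 98.3% and 62.5% before thinning. FCER1A was detected in 55.0% and 33.3% after thinning. The T cells, 38 in CT_LCG and 46 in FT_LCG, had 0% for KIT and FCER1A in both libraries, with or without thinning, at a median of 4727 UMIs in CT_LCG and 4644 in FT_LCG.

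Among 18 genes of FCER1 and its proximal signalling, 12 of 12 with at least 10 UMIs were at least 4-fold higher in the CT_LCG members and 4 of 4 in the FT_LCG members. LAT, the adaptor that links the receptor to downstream enzymes, had 65 and 12 UMIs in the members. The adaptor LCP2 had 82 and 14 UMIs, and the kinase BTK had 41 and 3. LAT and LCP2 also had UMIs in the T cells, while BTK had 0 there. The kinase SYK had 4 and 0 UMIs, and a count of 0 allows up to 3.

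**Figure D2:**
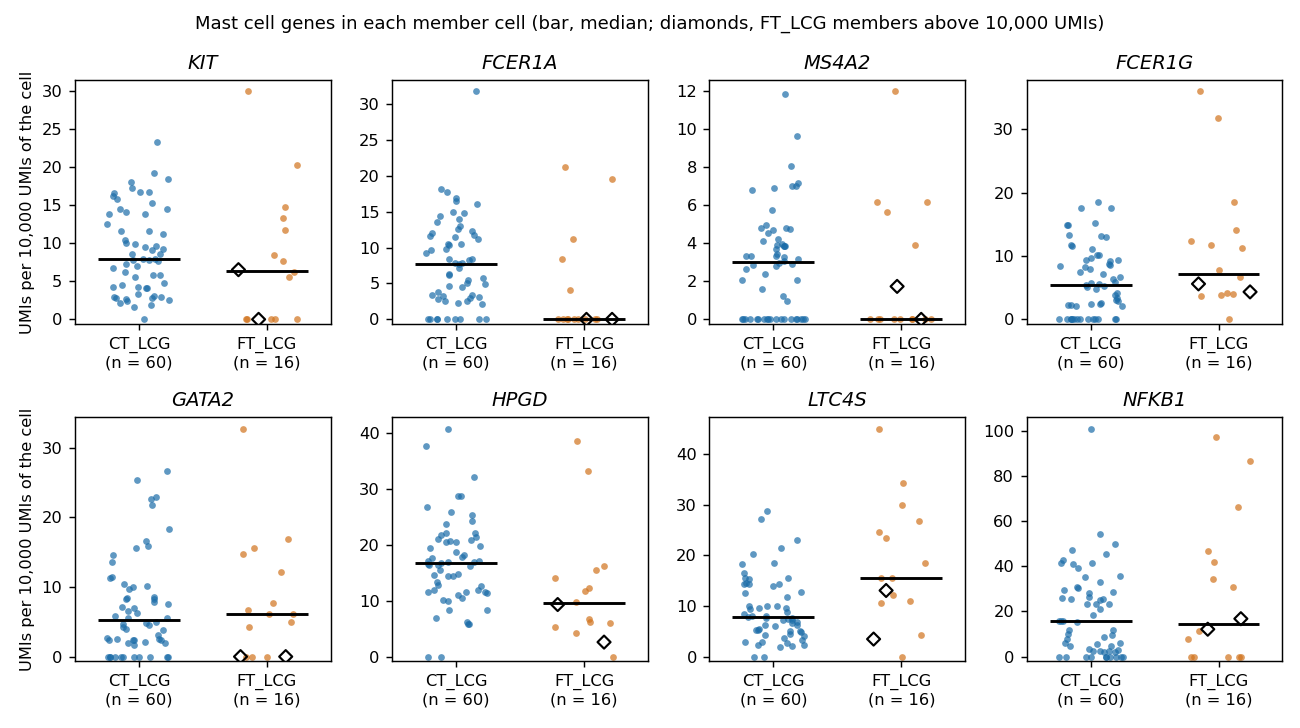
UMIs per 10000 UMIs of the cell (vertical axis) of 8 genes in each member of CT_LCG (n = 60 cells) and FT_LCG (n = 16 cells), with a bar at the median and diamonds for the 2 FT_LCG members above 10000 UMIs. The 2 libraries overlap for each gene, the median of FCER1A and of MS4A2 is 0 in FT_LCG, and NFKB1 spans 0 to 101 in CT_LCG.

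Genes of histamine handling were found at low counts. HDC, the enzyme that makes histamine, had 25 UMIs in 15 CT_LCG members and 3 UMIs in 2 FT_LCG members, against 5 and 3 UMIs in all other kept cells. SLC18A2, the transporter that loads amines into granules, had 51 UMIs in 29 CT_LCG members and 14 UMIs in 6 FT_LCG members, 9 of them in the 2 deep members. No other gene of the 10 amine genes in the matrix reached 10 UMIs. TPH1 and TPH2, which start serotonin synthesis, were at 0 UMIs in the members of both libraries, as was HNMT, an enzyme that inactivates histamine.

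Enzymes of prostaglandin and leukotriene synthesis were among the genes higher in the members. PTGS1, the constitutive cyclooxygenase, had 133 UMIs in 49 CT_LCG members and 24 in 12 FT_LCG members, and its level was 306-fold (213 to 449) and 290-fold (180 to 448) that of the other kept cells. PTGS2, the inducible cyclooxygenase, was found in few members, in 21 of 60 and 7 of 16, and 69.5% of its CT_LCG UMIs came from 5 cells. HPGDS, the prostaglandin D2 synthase of haematopoietic cells, had 32 and 2 UMIs. HPGD, which inactivates prostaglandins, had 0 to 27 UMIs per CT_LCG member (median 7) and 0 to 10 per FT_LCG member (median 2), and was detected in 58 of 60 and 15 of 16 members. Its level was 16.8 per 10000 in CT_LCG (15.4 to 18.3) and 9.84 in FT_LCG (7.26 to 13.1), or 13.2 without the 2 deep members (9.20 to 18.4). The difference between libraries exceeded counting error with all members, but the intervals overlapped once the 2 deep members were left out.

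LTC4S, the enzyme that makes leukotriene C4, went the other way. It had 0 to 19 UMIs per CT_LCG member (median 4) and 0 to 14 per FT_LCG member (median 4), and was detected in 58 of 60 and 15 of 16 members. Its level was 8.81 per 10000 in CT_LCG (7.79 to 9.93) and 14.2 in FT_LCG (11.0 to 17.9), or 19.2 without the 2 deep members (14.3 to 25.3). FT_LCG members were thus higher with and without those 2 cells, by a CT_LCG to FT_LCG ratio of 0.623 (0.477 to 0.824) and 0.458 (0.339 to 0.631). The values per cell overlapped. In the other kept cells the same ratio was 0.966. ALOX5, the first enzyme of leukotriene synthesis, had 32 and 9 UMIs, and its activating protein ALOX5AP had 20 and 4. Over the 20 genes of the pathway, 8 of 10 with at least 10 UMIs were at least 4-fold higher in CT_LCG and 4 of 5 in FT_LCG, and 7 genes, among them the prostaglandin D2 receptor PTGDR2 and the cysteinyl leukotriene receptors CYSLTR1 and CYSLTR2, were at 0 UMIs in CT_LCG.

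Of the transcription factors of mast and blood cells, GATA2, required for mast cell identity, had 224 UMIs in 49 CT_LCG members and 27 in 11 FT_LCG members. Its level was 467-fold (336 to 664) and 438-fold (276 to 672) that of the other kept cells, or 805-fold (507 to 1237) in FT_LCG without the 2 deep members, which held 0 of its UMIs. MITF, a regulator shared by mast cells and melanocytes, had 86 and 6 UMIs, and its level was 18.4-fold (14.4 to 23.3) and 6.16-fold (2.26 to 13.4) that of the others. FLI1 had 59 and 6 UMIs, ZEB2 had 115 and 19, and GATA1 had 9 and 1. By contrast CEBPB, a factor of myeloid cells and keratinocytes, was lower in CT_LCG members, at 0.172 of the level of the others. In total 9 of 12 genes with at least 10 UMIs were at least 4-fold higher and 1 was at least 4-fold lower in CT_LCG. In FT_LCG 2 of 4 were at least 4-fold higher.

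NFKB1, the p105 and p50 subunit of NF-kappa B, varied widely between members. It had 0 to 81 UMIs per CT_LCG member (median 7) and 0 to 24 per FT_LCG member (median 6), and 10 CT_LCG and 5 FT_LCG members had 0. The level was 21.4 per 10000 in CT_LCG (19.8 to 23.1) and 24.0 in FT_LCG (19.8 to 28.8), or 32.1 without the 2 deep members (25.6 to 39.6), against 1.66 and 0.786 in the other kept cells. T cells held 3.22 and 0.791 per 10000 and CD74-high cells 4.63 and 2.06, so each of these sets was lower than the members of its library. Of the 22 genes of the pathway, 7 of 19 with at least 10 UMIs were at least 4-fold higher in CT_LCG and 4 of 8 in FT_LCG. NFKB2 was 8.85-fold (6.76 to 11.4) and 13.1-fold (7.45 to 21.2) higher, and BIRC3, an inhibitor of apoptosis, was 4.57-fold (3.99 to 5.21) and 13.8-fold (10.0 to 18.5) higher, or 24.2-fold (17.4 to 32.8) in FT_LCG without the 2 deep members. The inhibitor NFKBIA had ratios of 1.15 (1.07 to 1.23) and 1.61 (1.35 to 1.90), under the 4-fold limit.

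Immediate early genes, which rise within minutes of many stimuli and of tissue dissociation, were mixed. In CT_LCG, 2 of 21 genes with at least 10 UMIs were at least 4-fold higher, namely FOSL2 and NR4A3, and 2 were at least 4-fold lower, namely FOS and ATF3. In FT_LCG, 4 of 20 were at least 4-fold higher and 0 at least 4-fold lower with all members, and 3 of 12 were higher and 1, FOS, lower without the 2 deep members. Over all genes with at least 10 UMIs, 18.4% were at least 4-fold higher in CT_LCG, 22.1% in FT_LCG and 31.2% there without the 2 deep members. The counts of higher genes in this list were not above these shares. At least 4-fold lower over all such genes were 2.96% in CT_LCG and 0.975% in FT_LCG with all members. The list summed to 293 per 10000 in FT_LCG with all members and to 163 without the 2 deep members, against 188 in the other kept cells. FOSL2 was 8.08-fold (7.04 to 9.23) and 8.87-fold (6.44 to 11.9) higher in the members. FOS had 99 UMIs in 39 CT_LCG members and 187 UMIs in 11 FT_LCG members, and 93.6% of the latter came from the 2 deep members. Without them, the FOS level in FT_LCG was 4.53 per 10000, near the 3.22 of CT_LCG, against 29.7 in the other kept FT_LCG cells.

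Several cytokine transcripts were concentrated in the members. IL13, a type 2 cytokine, had 102 UMIs in 25 CT_LCG members and 16 UMIs in 5 FT_LCG members, while all other kept cells held 26 and 8. LIF, a cytokine of the interleukin 6 family, had 111 UMIs in 32 members and 15 in 8, against 54 and 103 in all other kept cells. IL10 had 123 UMIs in 32 members and 8 in 6, and TGFB1 had 110 in 40 and 18 in 11. Each of these 4 was at least 4-fold higher in CT_LCG members. IL10 in FT_LCG, with 8 UMIs, was under the minimum of 10, and the other 3 were at least 4-fold higher there. IL4 was found in a single CT_LCG member, with 7 UMIs. IL5, IL6, IL9, IL33 and IL1B were at 0 UMIs in the members of both libraries, and TNF had 2 and 1. CCL20 and VEGFA were at least 4-fold lower in CT_LCG. The 5 members richest in IL13 held 54.9% of its CT_LCG UMIs. This share was 51.4% for LIF, 49.6% for IL10 and 30.0% for TGFB1.

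Genes of secretion and of the cell surface came next. STX11, a syntaxin of granule release in blood cells, had 210 and 28 UMIs and was 27.4-fold (23.4 to 32.0) and 21.7-fold (14.4 to 31.5) higher in the members. RAB27B, a small GTPase of granule transport, was 15.8-fold (13.4 to 18.5) and 7.60-fold (3.92 to 13.3) higher, or 12.8-fold (6.39 to 23.0) in FT_LCG without the 2 deep members. In the list of 23 secretion genes, 6 of 10 with at least 10 UMIs were at least 4-fold higher in CT_LCG and 2 of 2 in FT_LCG. Among adhesion, homing and cytoskeleton genes the numbers were 13 of 15 and 6 of 7. That list summed to 51.1 per 10000 in CT_LCG members and 40.0 in FT_LCG members, or 52.1 without the 2 deep members. These sums were below the 106 and 56.6 of the T cells and the 97.1 and 63.7 of the CD74-high cells. ITGB7, an integrin chain of mast cell homing, had 33 and 8 UMIs, and TYROBP, a signalling adaptor, had 95 and 15. TYROBP was at 0 UMIs in the T cells and at 11.0 and 8.68 per 10000 in the CD74-high cells. The leukocyte phosphatase PTPRC (CD45) was low in the members, at 0.553 per 10000 in CT_LCG and 0.410 in FT_LCG, against 4.30 and 1.84 in T cells. The homing receptor CXCR4 had 1 and 3 UMIs in the members against 19.4 and 6.52 per 10000 in T cells. Of the granule list, CPA3 and SRGN aside, 5 of 7 genes with at least 10 UMIs were at least 4-fold higher in CT_LCG. In FT_LCG the one other granule gene with at least 10 UMIs was CD63, a tetraspanin of granule membranes, at 3.40-fold, or 5.83-fold without the 2 deep members. Of the iron and redox list 1 of 10 and 0 of 8 were at least 4-fold higher.

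**Figure D3:**
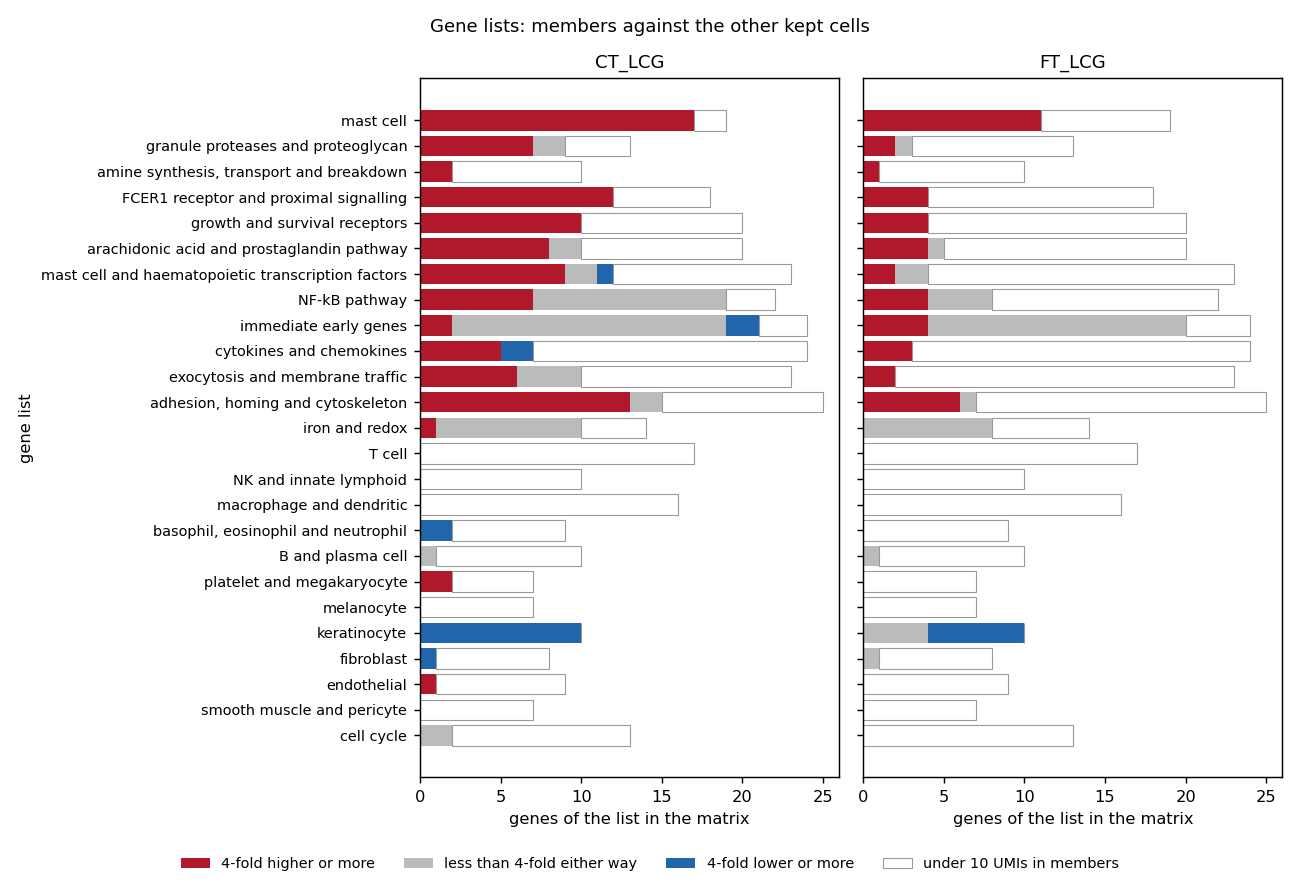
Number of genes (horizontal axis) of each of the 25 lists that were at least 4-fold higher, at least 4-fold lower or between in the members against the other kept cells, or had under 10 UMIs in the members, in CT_LCG (left) and FT_LCG (right). All 10 keratinocyte genes were at least 4-fold lower in CT_LCG and 6 of 10 in FT_LCG, and 0 genes of the T cell list reached 10 UMIs in either library.

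Markers of other cell types were read for every listed gene that was a symbol of the matrix. Of 17 T cell genes, 14 were at 0 UMIs in CT_LCG members and 15 in FT_LCG members, and the list summed to 0.293 and 0.410 per 10000, against 37.9 and 25.3 in the T cells. CD3E and CD3G were at 0 by the rule, but CD3D, CD2 and LCK were also at 0. Of 16 macrophage and dendritic genes, 13 and 15 were at 0, and CD74, the most abundant, had 8 and 2 UMIs. Among 10 NK and innate lymphoid genes 8 were at 0 in each library, and 9 of 10 B and plasma cell genes were at 0 in each, XBP1 being the exception with 136 and 12 UMIs. Of 16 basophil, eosinophil and neutrophil genes listed, only 9 were symbols of the matrix. CLC, PRG2, EPX, MCPT8 and SIGLEC8 were not, so they could not be read. Of the 9, S100A8 and S100A9 were the most abundant in CT_LCG, at 0.0977 and 0.0951 of the level of the other cells. All 9 were at 0 UMIs in FT_LCG. ENPP3, a marker of basophils and mast cells in other species, was at 0 UMIs in both libraries. Of the platelet list, ITGA2B and ITGB3, which pair as an integrin of megakaryocytes, had 17 and 10 UMIs in CT_LCG and 1 and 0 in FT_LCG, while PPBP, GP9, GP1BA and TUBB1 were at 0 in both. ITGA2B and ITGB3 were both at least 4-fold higher in CT_LCG members than in the other kept cells, with a median log2 ratio of 5.56.

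Melanocyte genes summed to 1 UMI in CT_LCG and 0 in FT_LCG. Smooth muscle and pericyte genes summed to 4 and 2 UMIs. Fibroblast genes summed to 0.618 per 10000 in CT_LCG and 12.1 in FT_LCG, and 58 of the 59 FT_LCG UMIs were POSTN in 1 of the 2 deep members. The endothelial list, of which 3 genes belonged to the rule, summed to 29 and 2 UMIs, led by EGFL7 with 15 UMIs in 7 CT_LCG members. Cell cycle genes summed to 3.32 per 10000 in CT_LCG members against 2.66 in the other kept cells, and to 0.615 (0.754 without the 2 deep members) against 5.26 in FT_LCG, with MKI67, TOP2A, CENPF and CDK1 at 8 UMIs together in CT_LCG and 0 in FT_LCG. PCNA and STMN1 were the only ones of that list with at least 10 UMIs, in CT_LCG.

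Keratinocyte transcripts were present in each member. The 10 genes summed to 68.6 per 10000 in CT_LCG and 213 in FT_LCG, or 119 without the 2 deep members, against 806 and 812 in the other kept cells. KRT10 was the most abundant in CT_LCG and KRT5 in FT_LCG, and 93.0% of the FT_LCG KRT5 UMIs were in the 2 deep members. In number, the keratinocyte UMIs ran from 15 to 97 per CT_LCG member (median 34) and from 15 to 32 in the 14 FT_LCG members (median 22.5), while the 2 deep members had 267 and 455. T cells had medians of 38.5 and 33 such UMIs, and barcodes not kept by the authors had medians of 48 and 41. The part of free RNA or of second cells in these counts was not tested. By the doublet score of Scrublet, which called 0 doublets, 7 CT_LCG members and 0 FT_LCG members were among the highest-scoring 5% of their library, ties included, and the 2 deep members were not.

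**Figure D4:**
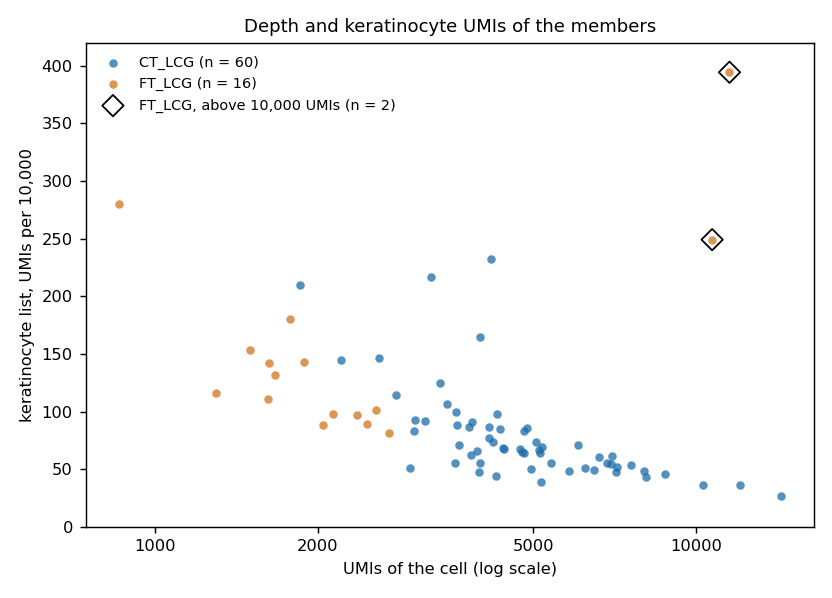
UMIs of each member (horizontal axis, log scale) and its UMIs of the 10 keratinocyte genes per 10000 (vertical axis) for CT_LCG (n = 60 cells) and FT_LCG (n = 16 cells). The 2 FT_LCG members above 10000 UMIs sit at 249 and 394 per 10000, whereas the CT_LCG members above 10000 UMIs are among the lowest.

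The genes most concentrated in the members of both libraries were taken by the smaller of the 2 ratios to the other kept cells, among 1658 genes with at least 30 UMIs in the members and a UMI in at least 10% of the members of each library. Of the 20 at the top, 9 carried only a LOC identifier, with no gene symbol, and the other 11 were CPA3, FCER1A, MS4A2, IL1RL1, SLC18A2 and GATA2, described above, and FCMR, IL17RB, HRH4, DHRS9 and ORAI2. HRH4, the histamine H4 receptor, had 94 UMIs in 39 CT_LCG members and 12 UMIs in 6 FT_LCG members, against 13 and 32 UMIs in all other kept cells. IL17RB, a chain of the interleukin 25 receptor, had 191 and 19 UMIs in the members and 26 and 10 in the others, and T cells held 8 and 3. ORAI2, a store-operated calcium channel protein, had 261 and 42 UMIs, and DHRS9, a retinol and steroid dehydrogenase, had 232 and 42. FCMR, an Fc receptor of IgM, had 75 and 16 UMIs and was at 0 in T cells and CD74-high cells of both libraries.

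The LOC genes are given with their neighbours in the goat reference table of RefSeq (assembly ARS1.2), which was used for gene order alone. LOC102177855 and LOC102178129 are next to each other in that order, 4 and 5 coding genes from C1QTNF8. Both were detected in every member of both libraries, and the rule had not used either. LOC102177855 had 4 to 321 UMIs per CT_LCG member (median 38) and 11 to 76 per FT_LCG member (median 21.5). LOC102178129 had 3 to 417 UMIs (median 24.5) and 2 to 84 (median 14.5). Their summed levels were 90.1 and 70.9 per 10000 in CT_LCG and 93.3 and 75.9 in FT_LCG, or 146 and 113 without the 2 deep members. All other kept cells together held 129 and 44 UMIs of the former and 95 and 39 of the latter. Where such neighbours are near-identical copies, reads that match both cannot be assigned to a single gene, so the value of each is uncertain.

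LOC108638461, LOC102174387 and LOC102175759 form a second group, at most 5 coding genes apart, beyond JAG2 and with no gene that has a symbol after them. They had 1494, 1692 and 758 UMIs in the CT_LCG members and 125, 112 and 18 in the FT_LCG members, and the same caution on copies holds. LOC108638461 was detected in 59 of 60 and 14 of 16 members, LOC102174387 in 56 and 15, and LOC102175759 in 40 and 5. The last thus went from 24.7 per 10000 in CT_LCG to 3.69 in FT_LCG, or 6.79 without the 2 deep members.

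LOC102191806, which lies between GNLY and SFTPB, had the highest summed level of all genes in the members of both libraries, 421 per 10000 in CT_LCG and 190 in FT_LCG, or 310 without the 2 deep members. With all members, it alone made up 4.21% of the UMIs of the CT_LCG members and 1.90% of those of FT_LCG. It also varied widely between members. It had 0 to 1140 UMIs per CT_LCG member (median 129), with 7 of 60 at 0, and 0 to 336 per FT_LCG member (median 2.5), with 7 of 16 at 0. Members at 0 and members at a high count thus occurred in both libraries. The 4 highest FT_LCG values were 336, 247, 174 and 85, and the other 12 were 51 or lower. T cells held 2 and 1 UMIs of it and CD74-high cells 1 and 1. The other 3 LOC genes among the 20 were LOC102171053, 4 coding genes from CCL16, LOC108636909, 5 coding genes from TTC5, and LOC102176878, which is not placed on a chromosome in the table. They had 77, 183 and 308 UMIs in CT_LCG members and 10, 36 and 100 in FT_LCG members.

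The spread among members was measured as the Pearson dispersion of UMIs over cells at their own depth, which is 1 when cells differ by counting alone, for genes with at least 30 UMIs. Its median was 1.38 over 1574 genes in CT_LCG. In FT_LCG it was 2.53 over 246 genes, or 1.65 over 154 genes without the 2 deep members. LOC102191806 ranked first in each of these, with 147 in CT_LCG. In CT_LCG it was followed by LOC102178315, JUN, LOC102178129 and LOC102175759. Where cells differ beyond counting, the measure also grows with the level of a gene, and LOC102191806 had the highest level. Its 5 highest CT_LCG members held 34.2% of its UMIs, against 66.8% for LOC102178315. JUN had 404 UMIs in 52 members, and the 5 highest members held 56.9% of them. IER3, an immediate early gene of cell survival, had 655 UMIs in 55 CT_LCG members with 43.2% in the 5 highest, and 102 UMIs in 10 of the 14 FT_LCG members with 85.3% in the 5 highest. Members of a single library thus differed beyond counting error in these LOC and immediate early genes.

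Between the 2 libraries, 1100 genes with at least 50 UMIs in all members together were compared. Of these, 24.7% were at least 2-fold higher in CT_LCG members and 6.18% at least 2-fold higher in FT_LCG members. The members of CT_LCG held 307499 UMIs and those of FT_LCG 48763, so the minimum was reached mostly through CT_LCG, and the 2 shares are not read against each other. With each cell thinned to 1000 UMIs, 27 and 13 genes were past 2-fold. Without the 2 deep FT_LCG members, the shares were 19.8% and 6.04% of 1043 genes. The 8 genes with the highest FT_LCG to CT_LCG ratio were LOC102188618, LOC102180443, LOC102179515, LOC102188072, LOC102177275, POSTN, KRT5 and SOCS3. For each of the 8, most FT_LCG UMIs lay in the 2 deep members. KRT5, a basal keratin, was at 3.15 per 10000 in CT_LCG and 70.3 in FT_LCG, but at 9.05 without those 2 cells, and its CT_LCG to FT_LCG ratio of 0.348 was then close to the 0.313 of the other kept cells. SOCS3, an inhibitor of cytokine signalling, went from a ratio of 0.0498 (0.0294 to 0.0815) to 0.948 (0.233 to 8.32). LOC102180443 had 48 UMIs in 12 of 16 FT_LCG members, 14 of them outside the 2 deep members, and 2 UMIs in 2 CT_LCG members. Its ratio was 0.00661 (0.000778 to 0.0252) in the members and 0.0101 in the other kept cells, so the gene was lower in CT_LCG in both.

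Genes with the highest CT_LCG to FT_LCG ratio were LOC102187162, PNP, LOC102181154, EML4, S100A7A, MAP3K2 and MAP4K4. All of these but S100A7A rested on a single FT_LCG UMI, and their intervals were wide. Genes at both ends were picked for the size of these ratios, and the intervals do not allow for that choice. Without the 2 deep members, the ratio was 18.0 for LOC102187162, 5.69 for EML4 (0.986 to 228), 5.34 for MAP3K2 (0.924 to 214) and 5.17 for MAP4K4 (0.894 to 208), so that the last 3 intervals included 1. It was 7.59 for S100A7A (2.57 to 37.0). The only FT_LCG UMI of PNP and that of LOC102181154 were each in a deep member. PNP, the purine nucleoside phosphorylase, had 123 UMIs in 28 CT_LCG members, 49.6% of them in 5 cells, and 1 in FT_LCG. Its ratio was 19.5 (3.44 to 777), against 2.80 in the other kept cells. LOC102187162 had 209 UMIs in 55 CT_LCG members and 1 in FT_LCG, a ratio of 33.1 (5.88 to 1315), against 3.25. S100A7A, an S100 protein of keratinocytes, had a ratio of 10.5 (4.04 to 38.7), an interval that held the 4.47 of the other kept cells, and its level in the other kept CT_LCG cells, 91.9 per 10000, was above that in the members, 8.59. LOC102181154, 71 UMIs in 7 members, came from few cells, and its log2 ratio turned to -0.42 after thinning.

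**Figure D5:**
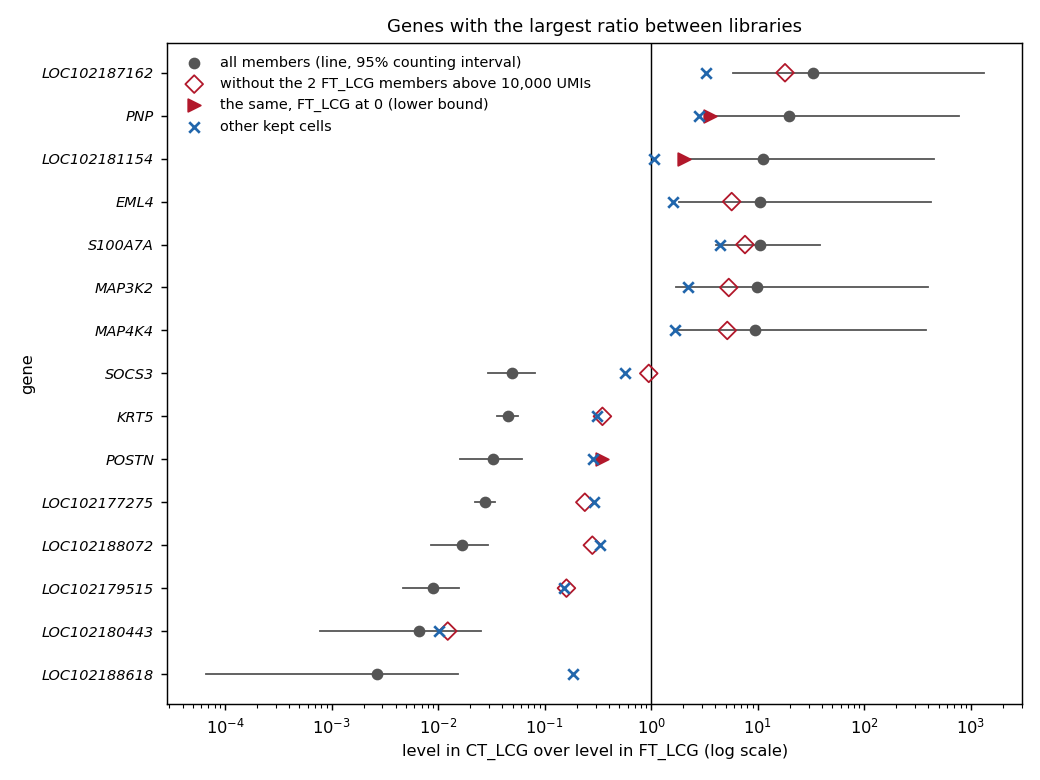
Ratio of the level in CT_LCG to that in FT_LCG (horizontal axis, log scale) of 15 genes with the largest ratios among members (rows), for all members with 95% counting intervals, for members without the 2 FT_LCG cells above 10000 UMIs, and for the other kept cells. KRT5 and SOCS3 move from 0.0448 and 0.0498 to 0.348 and 0.948 when the 2 cells are left out, and LOC102180443 moves from 0.00661 to 0.0123.

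Genes of the mast cell list that the rule had not used went both ways between the libraries. With all members, the CT_LCG to FT_LCG ratio was 3.28 for FCER1A and 1.71 for HPGD, as given above, 2.97 for IL1RL1 (1.63 to 6.04), 2.27 for MITF (1.00 to 6.37), 1.82 for MS4A2 (0.888 to 4.35), 1.32 for GATA2 (0.880 to 2.04) and 1.30 for KIT (0.896 to 1.96). It was 0.890 for NFKB1 (0.730 to 1.09), 0.868 for FCER1G (0.618 to 1.25) and 0.623 for LTC4S. Without the 2 deep members, the ratio was 1.78 for IL1RL1 (0.946 to 3.76), 1.85 for MITF (0.698 to 6.96), 0.916 for KIT (0.602 to 1.46) and 0.715 for GATA2 (0.479 to 1.11). The log2 ratio of MITF turned to -0.12 without the members above the median keratinocyte level. Without the 2 deep members, the ratio was 0.666 for NFKB1 (0.531 to 0.845) and 0.651 for FCER1G (0.441 to 0.995). These intervals leave out the spread between cells, which for NFKB1 was a dispersion of 9.71 in CT_LCG and 7.34 in the 14 FT_LCG members, where 5 cells held 82.4% of its UMIs. CPA3 and SRGN, which chose the members, had ratios of 1.33 and 1.34 with all members and of 0.778 and 0.846 without the 2 deep ones.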

How the data were processed

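Skin cells of 2 goats were profiled with the 10x Chromium 3′ kit (version 3), and the authors deposited raw UMI counts per gene and barcode, made with Cell Ranger (3.0.2 per the file headers), with a table that assigns the kept cells to a library. The labels also list bcl2fastq and Seurat 3.1.1. The goat genome build was not given in the sources used here. Kept cells had at least 501 genes and the others at most 500. Levels are summed UMIs per 10000 UMIs, and 3′ counts were not divided by gene length. Intervals (95%) were exact Poisson for levels, exact binomial conditional for ratios and Clopper-Pearson for shares, and where 1 side had 0 UMIs a floor of 3 counts was used.

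The members and the 25 gene lists (361 of 403 genes in the matrix) were chosen with earlier results of these data known. Named genes were the mast cell list, examples of each list, the 20 genes with the largest smaller-of-2 ratio (at least 30 UMIs, 10% of members) and the 8 with the largest ratio each way between libraries (at least 50 UMIs). T cells and CD74-high cells were set by their own UMIs. For comparisons across depth, each cell was thinned to 1000 UMIs. Doublets were not removed, since Scrublet (scanpy 1.11.5) called 0 cells. Its scores were used only to rank cells. Of 27137 features, 27103 matched the RefSeq table (assembly ARS1.2). The ratio code was tested on simulated data. It gave the right sign for 100% of 200 changed genes in CT_LCG (3539 genes) and 100% of 200 in FT_LCG (554 genes). The simulated counts held counting error alone and set changes of at least 4-fold. The test thus covers neither the spread between cells nor smaller ratios. Python 3.11.15, numpy 2.4.6, scipy 1.17.1 and pandas 2.3.3 were used. Alternatives changed the limits of the rule, the cells kept, the minimum of UMIs, the fold and the weighting of cells. A few named genes are not reported here.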

Additional observations from a re-analysis of the deposited data

Results flagged for a closer look

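The 5 genes listed here were lower in the CT_LCG members than in the other kept cells of that library and higher in the FT_LCG members, and the difference between libraries was not tested. The level in members was 0.152 of that in other kept cells in CT_LCG and 10.7-fold in FT_LCG for LOC102188618, 0.173 and 3.43-fold for LOC102188072, and 0.118 and 2.00-fold for LOC102179515. For SOCS3 the values were 0.231 and 2.65-fold, and for BHLHE40, a transcription factor of stress and circadian responses, 0.333 and 2.01-fold. Without the 2 FT_LCG members above 10000 UMIs, the FT_LCG values were 0.328, 0.203, 0.113, 0.139 and 0.904, all below 1.

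Among the barcodes the authors did not keep, 1 in FT_LCG met the rule. It had 744 UMIs and 489 genes, with 2 UMIs each of CPA3, SRGN and FCER1G, 1 each of GATA2 and HPGD, and 0 of KIT and LTC4S.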

How the results depend on the processing

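The share of members moved with the cells counted. In CT_LCG it was 3.18% of cells with at least 1000 genes and 0.983% of all barcodes, and in FT_LCG 0.0924% of cells with at least 1000 genes. After thinning it was 1.37% in CT_LCG and 0.105% in FT_LCG. The number of genes at least 4-fold higher in CT_LCG members was 241 after thinning, against 703, and the number at least 4-fold lower was 31, against 113. In FT_LCG, 102 genes were at least 4-fold higher without the members above the median keratinocyte level and 67 after thinning, against 159. The number at least 4-fold lower, 7, became 11 without the members above the median keratinocyte level, 17 without the 2 deep members and 18 as a mean over cells. Between libraries, 272 genes at least 2-fold higher in CT_LCG became 130 without the members above the median keratinocyte level and 27 after thinning, and 68 higher in FT_LCG became 45 and 13. Thinning and leaving cells out leave fewer genes above the minimum. With no minimum of UMIs, the list genes at least 4-fold higher in FT_LCG numbered 86 in place of 36. The log2 ratio of LOC102188618 in FT_LCG turned to -1.91 with at least 2 CPA3 UMIs and to -1.61 without the 2 deep members (an alternative chosen after seeing the data). The log2 ratio of CT_LCG to FT_LCG turned to -0.42 for LOC102181154 after thinning and to -0.12 for MITF without the members above the median keratinocyte level. The cause of these turns was not tested. Of 183 named ratios past 4-fold, 183 stayed past it with CPA3 and SRGN at 10 per 10000, 183 without the cells of highest Scrublet score, 179 with at least 2 CPA3 UMIs and 180 without the 2 deep members. Of 182 that could be computed, 169 stayed past it after thinning, 175 as a mean over cells and 177 without the members above the median keratinocyte level. No paired analysis was possible because each fibre type was 1 library of 1 goat and no test was run. In FT_LCG, leaving out the 2 deep members moved 77 of 121 levels out of their counting intervals.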

Other observations

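Several genes outside the lists were concentrated in the members, and they were chosen after their values were seen. ACSL4, which activates arachidonic acid for lipid synthesis, was detected in all 60 CT_LCG and all 16 FT_LCG members. Its level was 35.5 and 35.9 per 10000, or 48.7 without the 2 deep FT_LCG members, against 0.121 and 0.122 in the other kept cells. C5AR1, the receptor of complement fragment C5a, had 147 UMIs in 41 CT_LCG members and 36 UMIs in 15 FT_LCG members, while all other kept cells held 38 and 7. Both genes were thus found at like or higher levels in the members of FT_LCG.

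TH, tyrosine hydroxylase, the enzyme that starts catecholamine synthesis, had 95 UMIs in 37 CT_LCG members and 51 UMIs in 15 FT_LCG members. Its level was 3.09 and 10.5 per 10000, or 16.6 without the 2 deep members, and T cells and CD74-high cells were at 0 UMIs in both libraries. CDO1, cysteine dioxygenase, had 287 and 46 UMIs and was also at 0 UMIs in those cells. EMILIN2, an extracellular matrix glycoprotein, was detected in 58 of 60 CT_LCG members and 7 of 16 FT_LCG members, at 10.2 and 4.51 per 10000. CRLF2, a chain of the receptor of thymic stromal lymphopoietin, had 50 and 16 UMIs.

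Outside the rule, the cell richest in mast cell genes was a CT_LCG cell of 4846 UMIs. It had a UMI of 12 of the 17 genes, with 0 of CPA3, 20 of SRGN, 7 of KIT, 38 of LOC102177855 and 114 of LOC102191806.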
